A study of Mus musculus with 13 samples.

Results

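Coagulation and fibrinolysis genes of the mouse liver were followed as a list of 30 symbols, matched to the count table by name. Of the 22048 genes in the count table, 29 were members. Expression of Klkb1, the gene of plasma prekallikrein, was not analysed here. All 29 members passed the filter on low counts, and 13831 genes did so in all. The samples were whole livers profiled by bulk RNA-seq, in 3 groups. The 6 control livers (3 male, 3 female) are labelled as not depleted of hepatic stellate cells, pericytes that line the liver sinusoids and store vitamin A. The 4 stellate cell-depleted livers comprised 1 male (replicate 3) and 3 females. The 3 livers taken 72 h after partial hepatectomy, an operation that takes out part of the liver, comprised 2 males and 1 female and are also labelled as not depleted. Strain, age, the means of depletion and any treatment of the controls are not given in the sources used here. The labels do not say that replicates were separate animals, so p-values measure only the spread between these samples.

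Blood clotting runs through a chain of proteases, each activating the next, which ends when thrombin cuts fibrinogen into fibrin. Hepatocytes secrete most of the soluble factors and several of the inhibitors, while thrombomodulin, the endothelial protein C receptor and tissue factor pathway inhibitor are known mainly from endothelium, and urokinase and its receptor mainly from leukocytes and other migrating cells. Plasmin, made from plasminogen by tissue-type or urokinase-type activators, dissolves fibrin. Fibrinogen is an acute phase protein whose genes respond to interleukin-6 in hepatocytes.

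Libraries held 35360991 to 51008737 counts. Levels below are in CPM, read counts relative to library size after TMM scaling of edgeR, and 3 counts correspond to between 0.0524 and 0.0900 CPM on that scale. Of 10 stellate cell markers, 10 were lower in depleted livers. Their summed level was 282 to 715 CPM in controls, 315 to 584 CPM after hepatectomy and 10.4 to 71.5 CPM in depleted livers, highest in depleted replicate 4. The 8 hepatocyte markers summed to 71004 to 142120 CPM in controls, 67284 to 168970 CPM in depleted livers and 116300 to 175070 CPM after hepatectomy. The medians were 101270, 101350 and 157500 CPM. The part of hepatocyte RNA in the changes of members was not tested. Control replicate 6 and hepatectomised replicate 2 had the lowest sums of their groups for sinusoidal endothelial markers (118 and 147 CPM) and for monocyte and macrophage markers (38.8 and 57.7 CPM). They were also the lowest of their groups for hepatocyte markers (71004 and 116300 CPM), while control replicate 6 was the highest control for platelet markers (7.17 CPM). These 2 libraries therefore stood apart in several marker lists, and counts without them are given below. In bulk RNA, fewer cells of a type and less RNA per cell cannot be told apart.

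In depleted livers the members that rose most were expressed at low levels in control liver. F13a1, Procr, Plaur, Plau and Thbd rose together with the liver-secreted Serpina10, Cpb2 and Pros1, and F5 and F10 fell. After hepatectomy the 3 fibrinogen chains rose about 3-fold, and Kng1, Serpina10, Pros1, Cpb2, Serpinf2, Thbd and F13a1 rose as well. By edgeR's quasi-likelihood test with Benjamini-Hochberg adjustment over all genes (threshold 0.05), 8 of 29 members were higher and 2 lower in depleted livers than in controls. Among all genes tested, 18.9% were higher and 15% lower in that comparison, so the members' share called, 34.5%, was near the background. After hepatectomy 10 members were higher and 0 lower, against 6.06% and 2.36% of all genes. For the count of 0, F3 alone had an unadjusted p under 0.05, DESeq2 called 1 member lower and limma-voom 0. In the direct comparison, 5 members were higher and 6 lower in depleted than in hepatectomised livers, against 13.3% and 10.1% of all genes. The median log2 fold change of the members was 0.14 in depleted livers, 0.36 after hepatectomy and -0.34 for depleted against hepatectomised livers, while that of all genes was -0.03, -0.02 and -0.05. The comparisons with control share the same 6 control libraries.

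The size of these counts depended on a few libraries and on the scaling. Without control replicate 6 and hepatectomised replicate 2, 9 members were higher and 1 lower in depleted livers, 8 higher and 0 lower after hepatectomy, and 5 higher and 6 lower in the direct comparison. Over all genes that fit called 2746 higher and 2096 lower in depleted livers, 332 and 80 after hepatectomy, and 1738 and 1147 in the direct comparison. Without depleted replicate 3, the only male of its group, the direct comparison called 2 members higher and 3 lower, and 1051 and 658 of all genes. It called 3 members higher without hepatectomised replicate 2 (1444 of all genes). Without hepatectomised replicate 3 it called 3 members in each direction (1304 higher and 1027 lower of all genes). The 2 members lower in depleted livers became 0 without control replicate 1 or 3 or depleted replicate 1 or 3, 4 without control replicate 4, and 1 without control replicate 2 or 5 or any 1 hepatectomised library. Over all genes, 2078 were lower there with all 13 libraries. In the fits that left 0 members lower it was 1174 to 1882, and without control replicate 4 it was 1903. Scaling to library size alone moved the median of all genes to -0.24 after hepatectomy and 0.27 for depleted against hepatectomised livers. It gave 626 higher and 1566 lower genes after hepatectomy in place of 838 and 326, 3102 and 610 in the direct comparison in place of 1837 and 1399, and 2884 and 1471 in depleted livers in place of 2614 and 2078. Under that scaling 12 members were higher and 0 lower in depleted livers, 9 higher and 1 lower after hepatectomy, and 5 higher and 3 lower in the direct comparison. None of the 31 member changes called reversed direction in any of the 692 alternative fits.

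**Figure D1:**
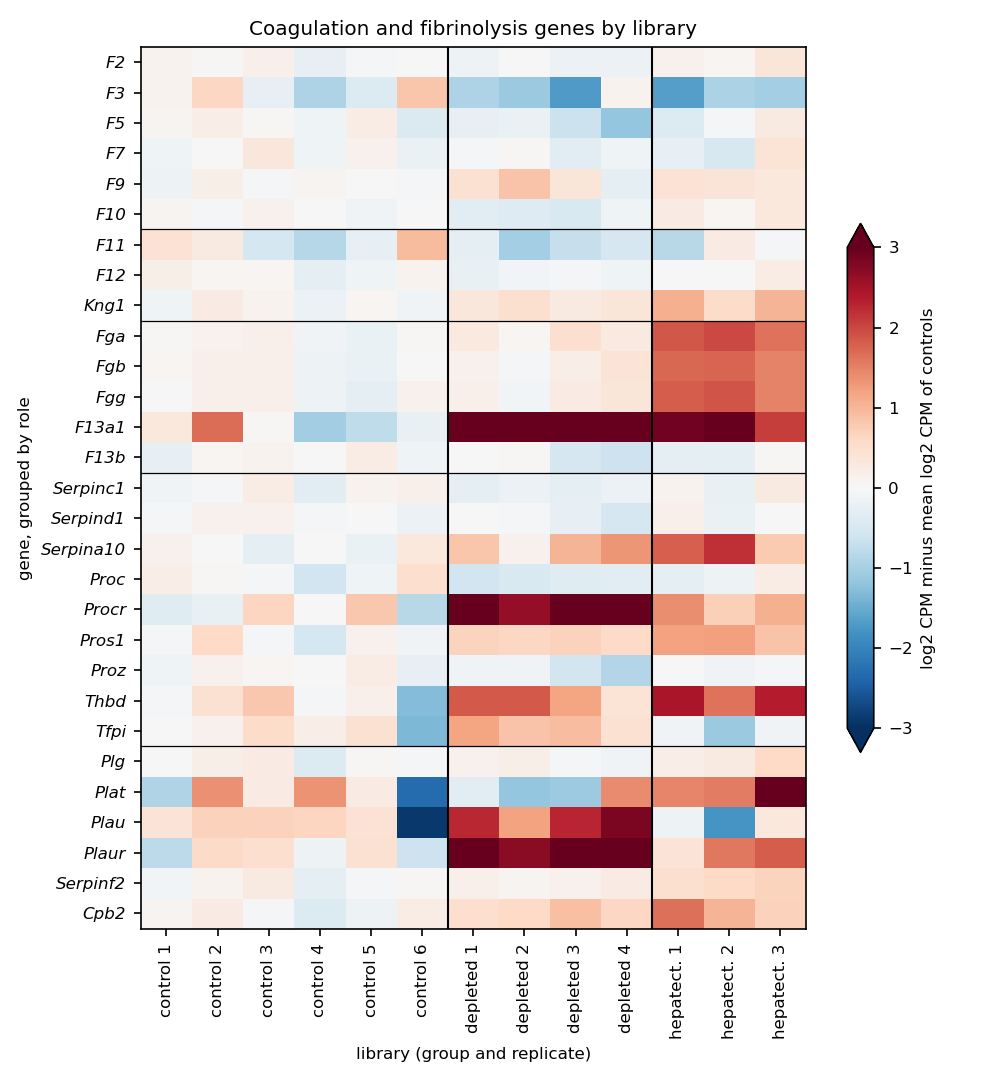
Expression of the 29 members in each of the 13 libraries, as log2 CPM minus the mean log2 CPM of the 6 controls, with colours held at 3 in either direction and rows grouped by role. Fga, Fgb and Fgg are higher in the 3 hepatectomised libraries than in every other library, and F13a1, Procr, Plau and Plaur in the 4 depleted libraries.

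Per kilobase of gene length, the fibrinogen chains were the most abundant members of control liver. The mean level was 1730 CPM per kilobase for Fgg, 1426 for Fga and 1270 for Fgb, followed by 1216 for Plg, the plasmin precursor, and 891 for Kng1, the kininogen gene. At the other end were Tfpi at 1.47, Thbd at 0.784, Plau at 0.728, Plaur at 0.458, Procr at 0.401, Plat at 0.162 and F13a1 at 0.0874 CPM per kilobase. The mean control level was above 50 CPM for 21 members and below it for 8, a line drawn after the levels had been seen. Pros1 lay nearest above it and Tfpi nearest below. In depleted livers 3 of the 21 abundant members were higher and 2 lower (23.8% called), and 5 of the 8 low-level members were higher (62.5%), beside 18.9% higher and 15% lower of all genes. After hepatectomy 8 of the 21 (38.1%) and 2 of the 8 (25%) were higher, beside 6.06% of all genes. Whether the 2 sets differed was not tested. Together the members took 2.91% ± 0.18 (SD, n = 6) of all counts in controls, 3.40% ± 0.35 (SD, n = 4) in depleted livers and 5.53% ± 0.29 (SD, n = 3) after hepatectomy. The lowest hepatectomised share, 5.20%, was above the highest of the other groups, 3.77% in depleted replicate 4.

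Of the 6 genes in the cascade from tissue factor to thrombin, edgeR called 2 lower in depleted livers, F5 and F10, where 15% of all genes were lower. After hepatectomy edgeR called 0 of them in either direction, against 6.06% of all genes higher and 2.36% lower. F3 had an unadjusted p under 0.05 there and was called lower by DESeq2 and not by limma-voom. Of the 8 hepatocyte markers, Ass1 and Rbp4 were also lower in depleted livers, and the median log2 fold change was -0.26 for that list and -0.28 for the 6 cascade genes. The part of hepatocyte RNA in the values of F5 and F10 was not tested. F2, which encodes prothrombin, ranged from 1539 to 2015 CPM in controls with a median of 1835 CPM. It stood at 1642, 1800, 1598 and 1612 CPM in depleted livers and at 2000, 1878 and 2344 CPM after hepatectomy. Its adjusted p was 0.407 and 0.409 against control by edgeR. F7, the protease that tissue factor activates, gave log2 fold changes of -0.21 ± 0.13 (SE) in depleted livers and -0.03 ± 0.14 after hepatectomy, neither called. F9, the Christmas factor gene on the X chromosome, ranged from 216 to 268 CPM in controls with a median of 236 CPM. It was at 331, 433, 310 and 194 CPM in depleted livers and at 323, 314 and 299 CPM after hepatectomy. Depleted replicate 4 was thus the only depleted library within or under the control range. The adjusted p was 0.104 in depleted livers, 0.00479 without replicate 4 and 0.0339 with scaling to library size alone. After hepatectomy F9 did not overlap with controls, and its adjusted p was 0.252.

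F10, the gene of the factor that cuts prothrombin, fell in depleted livers. It ranged from 515 to 601 CPM in controls with a median of 544 CPM, and stood at 436, 421, 400 and 506 CPM in depleted livers and at 655, 571 and 690 CPM after hepatectomy. The depleted libraries lay under all controls and under all hepatectomised libraries. On the log2 scale F10 changed by -0.35 ± 0.12 (SE) against control (edgeR adjusted p = 0.0339) and by -0.57 ± 0.14 against hepatectomised livers (0.00992). The call against control was lost with scaling to library size alone (adjusted p = 0.191), with a block on the replicate number (0.0955) and in females only (0.307). It was lost too without control replicate 1 (0.058) or 3 (0.0815), without depleted replicate 1 (0.0799), 2 (0.0794) or 3 (0.153), and without control replicate 6 and hepatectomised replicate 2 together (0.0558). Against hepatectomised livers it was lost without depleted replicate 3 (0.0596) or hepatectomised replicate 3 (0.0537), in a fit of those groups alone (0.0551) and with library size alone (0.258).

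F5, the cofactor that accelerates prothrombin cleavage, ranged from 538 to 845 CPM in controls with a median of 755 CPM. It was at 610, 629, 465 and 325 CPM in depleted livers and at 547, 697 and 865 CPM after hepatectomy. Control replicate 6 was the lowest control and overlapped with the depleted range. The log2 fold change in depleted livers was -0.58 ± 0.21 (SE; edgeR adjusted p = 0.0485), and the call was kept in 7 of 23 alternatives. Leaving out any 1 of control replicates 1, 2, 3 and 5, depleted replicates 1, 3 and 4 or hepatectomised replicates 1, 2 and 3 ended it, with adjusted p from 0.0524 to 0.131. F3, which encodes tissue factor, ranged from 2.88 to 9.69 CPM in controls with a median of 5.21 CPM. It stood at 2.85, 2.53, 1.68 and 5.81 CPM in depleted livers and at 1.73, 2.84 and 2.69 CPM after hepatectomy. All 3 hepatectomised libraries lay under the lowest control. The log2 fold change after hepatectomy was -1.28 ± 0.45 (SE) with an adjusted p of 0.104, which became 0.0316 with DESeq2 and 0.0468 with library size alone. In depleted livers the adjusted p was 0.215, and 0.0351 without depleted replicate 4.

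Of the contact system, edgeR called Kng1, and it called neither F11 nor F12 in the 3 comparisons of control, depleted and hepatectomised livers. Kng1, the precursor of bradykinin, ranged from 2500 to 3303 CPM in controls with a median of 2761 CPM. It was at 3532, 3914, 3352 and 3630 CPM in depleted livers and at 5850, 4124 and 5695 CPM after hepatectomy. The 3 groups did not overlap. The log2 fold change was 0.90 ± 0.15 (SE) after hepatectomy (edgeR adjusted p = 0.00437), 0.34 ± 0.14 in depleted livers (0.0874) and -0.56 ± 0.17 for depleted against hepatectomised livers (0.0316). With the replicate number as a block the adjusted p was 0.0563 after hepatectomy and 0.106 in the direct comparison. The direct comparison also lost its call without depleted replicate 1 (0.0691) or 3 (0.12), without hepatectomised replicate 1 (0.0873) or 3 (0.135), in a fit of those groups alone (0.108) and with library size alone (0.292). The depleted livers were called higher than control with library size alone (0.0212). Kng2, a close copy of Kng1, had a log2 fold change of 0.89 ± 0.15 after hepatectomy (0.00472), and how the authors' counting split reads between both genes is not given in the sources used here. F12 had log2 fold changes of -0.10 ± 0.12 and 0.06 ± 0.13 against control.

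The fibrinogen genes Fga, Fgb and Fgg rose about 3-fold after hepatectomy. They encode the Aα, Bβ and γ chains of one secreted hexamer and lie side by side on chromosome 3 (GRCm38, GENCODE M21), Fgg at chr3:83007724-83015049, Fga at chr3:83026076-83033627 and Fgb at chr3:83040141-83049863. Since the 3 genes rose together, the stretches before their RefSeq start sites (GRCm38.p6) are shown, 250 bases for Fgb and Fgg and 173 bases for Fga, where the last 77 bases are left out because GENCODE places them inside the gene. Fga is at chr3:83025903-83026075 on the plus strand, Fgb at chr3:83050113-83049864 read on the minus strand and Fgg at chr3:83007474-83007723 on the plus strand. Capitals mark the letters CTGGGAA, the core of the interleukin-6 response elements described in acute phase genes.
Fga: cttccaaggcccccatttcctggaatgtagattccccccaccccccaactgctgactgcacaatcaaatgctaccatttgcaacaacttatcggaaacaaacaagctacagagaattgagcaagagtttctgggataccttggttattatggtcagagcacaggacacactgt
Fgb: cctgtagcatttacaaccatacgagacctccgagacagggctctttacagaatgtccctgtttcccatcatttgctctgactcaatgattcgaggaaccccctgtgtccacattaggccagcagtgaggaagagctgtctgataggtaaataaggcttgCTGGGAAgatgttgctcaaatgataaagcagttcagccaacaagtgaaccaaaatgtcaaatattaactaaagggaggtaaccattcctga
Fgg: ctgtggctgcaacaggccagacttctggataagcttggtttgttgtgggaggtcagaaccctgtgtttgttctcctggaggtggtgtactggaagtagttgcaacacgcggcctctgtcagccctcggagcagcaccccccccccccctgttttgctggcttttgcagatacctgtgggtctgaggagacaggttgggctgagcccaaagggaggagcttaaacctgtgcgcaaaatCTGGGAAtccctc
The letters began 91 bases before the start of Fgb and 13 bases before that of Fgg, and were not in the window of Fga. Both strands of the 250 bases before each start were searched, and 9.14% of 32536 RefSeq promoters held CTGGGAA. The STAT-type letters TTCNNNGAA were in the windows of Fga and Fgb (7.04% of all promoters), as were the C/EBP-type letters TTGCNNAA (9.57%). In these 3 windows no match overlapped another. Windows were matched for 23 of the 30 listed genes. CTGGGAA was also found before F9 and Tfpi, and in F9 it overlapped a TTCNNNGAA match. TTCNNNGAA was also found before Pros1, and TTGCNNAA before F9, F11, Klkb1, Plaur and Procr. Of these genes F9, F11, Plaur, Procr and Tfpi were not called by edgeR after hepatectomy. These are letter matches only.

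Fga ranged from 3749 to 4726 CPM in controls with a median of 4364 CPM, was at 5264, 4453, 6062 and 5146 CPM in depleted livers and reached 15498, 16909 and 13189 CPM after hepatectomy. Fgb ranged from 4179 to 5346 CPM in controls with a median of 4911 CPM, and was at 5280, 4643, 5535 and 6416 CPM and at 15973, 16094 and 13617 CPM in the other groups. Fgg ranged from 2921 to 4004 CPM in controls with a median of 3772 CPM, and was at 3988, 3425, 4282 and 4609 CPM and at 12569, 13229 and 10150 CPM. For each chain the hepatectomised libraries were far above all others, while the depleted libraries overlapped with controls. The log2 fold changes after hepatectomy were 1.79 ± 0.13 (SE) for Fga, 1.63 ± 0.14 for Fgb and 1.69 ± 0.14 for Fgg, with edgeR adjusted p of 2.7e-05, 5e-05 and 4.5e-05. In fold terms these were 3.45, 3.10 and 3.23. For depleted against hepatectomised livers the log2 differences were -1.46 ± 0.15, -1.42 ± 0.16 and -1.47 ± 0.17, with adjusted p of 7.4e-05, 0.00014 and 0.00014. These 6 calls were kept under every alternative.

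In depleted livers the log2 fold changes were 0.33 ± 0.12 (SE) for Fga, 0.21 ± 0.14 for Fgb and 0.22 ± 0.14 for Fgg, with edgeR adjusted p of 0.0572, 0.256 and 0.236. Fga was called there by DESeq2 (adjusted p = 0.00771), with library size alone (0.0213) and without control replicate 3 (0.0368) or depleted replicate 2 (0.0433). Counts of the 3 chains made up 1.29% ± 0.11 (SD, n = 6) of each control library, 1.63% ± 0.30 (SD, n = 4) of each depleted and 3.69% ± 0.44 (SD, n = 3) of each hepatectomised library. Of all counts on members they were 44.3%, 47.6% and 66.5% on average. The ratio of Fga to Fgb counts was 0.889 ± 0.026 (SD, n = 6) in controls, 0.963 ± 0.122 (n = 4) in depleted livers and 0.996 ± 0.047 (n = 3) after hepatectomy. Depleted livers spanned 0.802 to 1.10 and so covered the other groups. The ratio of Fgg to Fgb was 0.748, 0.746 and 0.785.

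**Figure D2:**
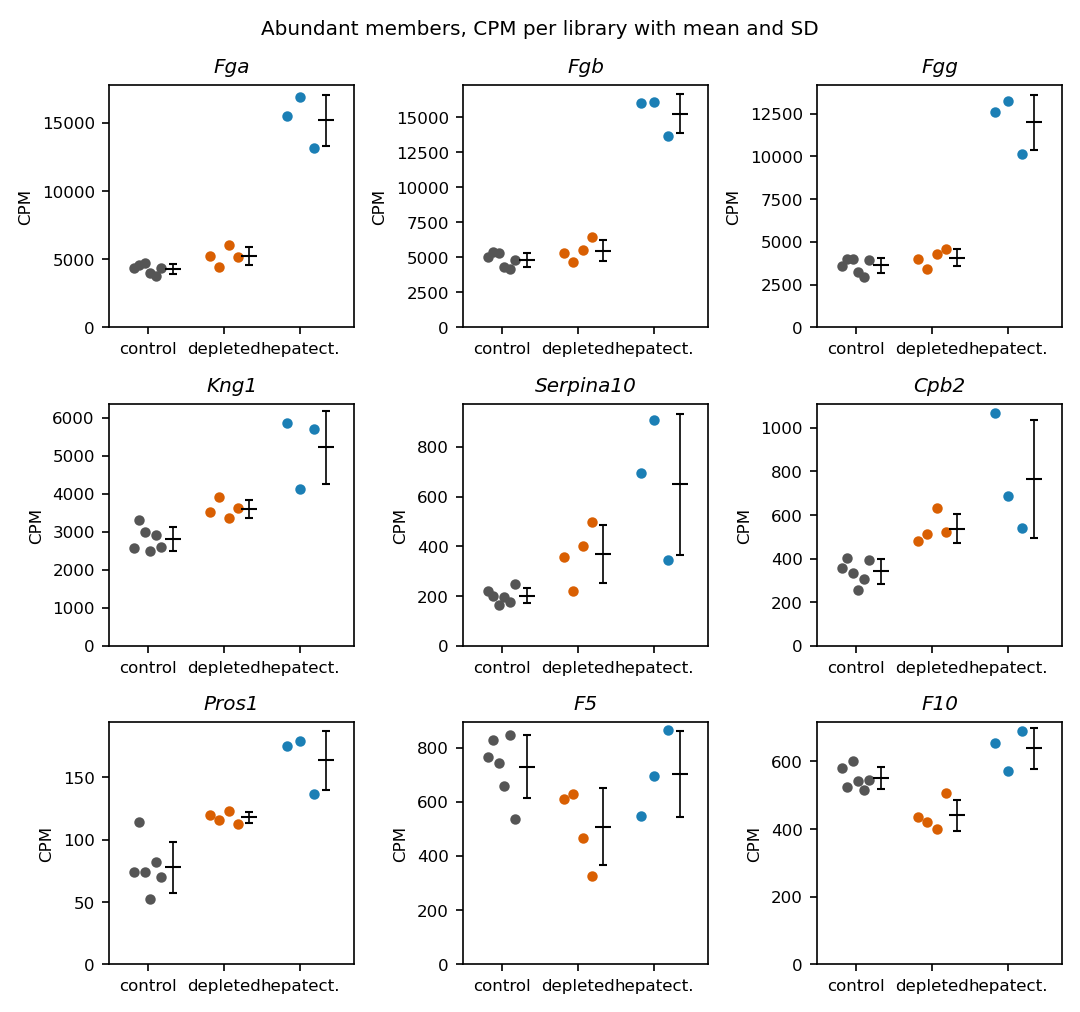
CPM of 9 abundant members in each library of the control (grey), stellate cell-depleted (orange) and 72 h hepatectomised (blue) groups, with the mean and SD beside the points and axes that start at 0. The 3 fibrinogen chains lie between 10150 and 16909 CPM in the 3 hepatectomised libraries and at most at 6416 CPM in the others.

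F13a1, the transglutaminase subunit that crosslinks fibrin and is known from macrophages and platelets, gave the largest change of all members in depleted livers. It was at 0.348, 0.890, 0.283, 0.135, 0.164 and 0.240 CPM in control replicates 1 to 6, at 9.70, 10.2, 7.53 and 4.03 CPM in depleted livers and at 2.06, 2.47 and 1.17 CPM after hepatectomy. The 3 groups did not overlap. On the log2 scale the change was 4.86 ± 0.46 (SE) in depleted livers (edgeR adjusted p = 1.2e-05), 2.36 ± 0.44 after hepatectomy (0.00818) and 2.50 ± 0.54 for depleted against hepatectomised livers (0.00543). Without control replicate 6 and hepatectomised replicate 2 the value after hepatectomy was 2.14 with an adjusted p of 0.0509. F13b, the carrier subunit secreted by hepatocytes, gave log2 fold changes of -0.33 ± 0.14 in depleted livers (0.0911) and -0.14 ± 0.15 after hepatectomy (0.622).

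Leukocyte and platelet markers were read beside F13a1. In depleted livers 7 of 7 monocyte and macrophage markers rose, and their summed level was 903 to 1695 CPM against 38.8 to 322 CPM in controls and 57.7 to 253 CPM after hepatectomy. The 8 platelet markers summed to 6.74 to 26.2 CPM in depleted livers against 2.63 to 7.17 CPM in controls and 4.18 to 6.58 CPM after hepatectomy, where Gp6 was at 0. Of the 7 Kupffer cell markers, 3 rose in depleted livers. Their sums were 580 to 1305 CPM there, 55.1 to 483 CPM in controls and 59.8 to 691 CPM after hepatectomy, highest in hepatectomised replicate 1. Clec4f, another of the 7, was lower in depleted livers at an unadjusted p under 0.05 by edgeR. After adjustment edgeR and DESeq2 called 0 Kupffer markers lower there and limma-voom 1. After hepatectomy edgeR called 0 of the monocyte and Kupffer markers. There 1 monocyte marker (Itgam) and 1 Kupffer marker (Marco) had an unadjusted p under 0.05, DESeq2 called both and limma-voom called Itgam. The 8 neutrophil markers summed to 169 to 353 CPM in depleted livers, 0.660 to 4.57 CPM in controls, where Ly6g was at 0, and 17.5 to 32.4 CPM after hepatectomy. In depleted replicates 1 to 4 the monocyte sums were 1050, 903, 1434 and 1695 CPM, the Kupffer sums 671, 580, 899 and 1305 CPM, the platelet sums 11.7, 6.74, 26.1 and 26.2 CPM and the neutrophil sums 353, 257, 348 and 169 CPM. Plaur, Plau and Procr, whose values are given below, had the same order over these 4 libraries as the first 3 sums, highest in replicate 4 and lowest in replicate 2. F13a1 was highest in replicate 2 and lowest in replicate 4, where the neutrophil sum and Thbd were lowest too. In hepatectomised replicates 1 to 3 the monocyte sums were 253, 57.7 and 109 CPM, within the control range, and the neutrophil sums were 32.4, 27.2 and 17.5 CPM, all above controls and lowest in replicate 3, as F13a1 was. These orders over 3 or 4 libraries are descriptions. The part of these cell types in the changes of F13a1, Plaur, Plau, Procr and Thbd was not tested.

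Among the anticoagulants, 4 of 9 rose in depleted livers and 3 after hepatectomy, against 18.9% and 6.06% of all genes higher. Procr, the endothelial protein C receptor, was at 0.420 to 1.31 CPM in controls with a median of 0.692 CPM. It reached 7.93, 4.70, 12.9 and 26.5 CPM in depleted livers and was at 1.97, 1.24 and 1.57 CPM after hepatectomy. All depleted libraries were above all others, and depleted replicate 4 was the highest. Fitted as a log2 fold change, the difference was 3.94 ± 0.44 (SE) in depleted livers (edgeR adjusted p = 3.9e-05), 1.09 ± 0.49 after hepatectomy (0.191) and 2.84 ± 0.57 between the treated groups (0.0036). The 10 sinusoidal endothelial markers summed to 118 to 605 CPM in controls, 289 to 573 CPM in depleted and 147 to 441 CPM in hepatectomised livers. Of these 10 markers, 1 rose and 1 fell in depleted livers. The 5 vein endothelial markers summed to 21.9 to 74.5 CPM in controls, 9.11 to 13.8 CPM in depleted and 19.3 to 40.2 CPM in hepatectomised livers. Of these 5, Ltbp4 and Rspo3 fell and Selp rose in depleted livers. The part of endothelial RNA in the values of Procr and Thbd was not tested.

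Thbd, thrombomodulin, which turns thrombin into an activator of protein C, ranged from 1.08 to 4.65 CPM in controls with a median of 2.77 CPM. It was at 9.62, 9.63, 6.10 and 3.54 CPM in depleted livers and at 14.6, 8.28 and 13.6 CPM after hepatectomy. Only depleted replicate 4 lay within the control range. The fitted log2 fold change was 1.22 ± 0.36 (SE) in depleted livers (edgeR adjusted p = 0.0182) and 2.13 ± 0.38 after hepatectomy (0.00571). The first call was lost without depleted replicate 1 (0.0511) or 3 (0.0768) and in females only (0.0985). Tfpi, which blocks the complex of tissue factor and factor VII, ranged from 2.94 to 10.9 CPM in controls with a median of 8.33 CPM. It was at 17.0, 13.5, 14.2 and 10.2 CPM in depleted livers and at 6.91, 3.42 and 6.96 CPM after hepatectomy. Depleted and hepatectomised livers did not overlap, and control replicate 6 and hepatectomised replicate 2, the libraries low in endothelial markers, were the lowest of their groups. The log2 difference between depleted and hepatectomised livers was 1.11 ± 0.36 (SE) with an adjusted p of 0.0442, kept in 11 of 22 alternatives. Leaving out any 1 of control replicates 1 to 5, depleted replicates 1 to 3 or hepatectomised replicates 2 and 3 ended this call, with adjusted p from 0.0535 to 0.23. Against control Tfpi in depleted livers had an adjusted p of 0.0736, which was 0.0416 without depleted replicate 4, 0.0495 with library size alone and 0.0191 without the 2 libraries low in markers.

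Pros1 and Serpina10 were the secreted anticoagulants that rose in both comparisons with control. Pros1, protein S, the cofactor of activated protein C, ranged from 52.5 to 115 CPM in controls with a median of 74.1 CPM, and was at 120, 116, 123 and 112 CPM in depleted livers and at 175, 179 and 136 CPM after hepatectomy. Control replicate 2 was the only control that reached the depleted range. Its log2 fold change was 0.67 ± 0.16 (SE) in depleted livers (edgeR adjusted p = 0.00617) and 1.02 ± 0.17 after hepatectomy (0.00437), and both calls were kept under every alternative. Serpina10, the protein Z-dependent inhibitor of factor Xa, ranged from 164 to 249 CPM in controls with a median of 200 CPM. It was at 357, 219, 401 and 499 CPM in depleted livers and at 694, 908 and 345 CPM after hepatectomy. Depleted replicate 2 stayed within the control range, and all hepatectomised libraries were above it. The log2 fold change was 1.00 ± 0.23 (SE) in depleted livers (0.00463) and 1.56 ± 0.25 after hepatectomy (0.00388). In females only, the first gave an adjusted p of 0.0504. For depleted against hepatectomised livers the adjusted p was 0.192, and 0.0411 without depleted replicate 4.

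The remaining liver-made anticoagulants were not called. Serpinc1, antithrombin, the main inhibitor of thrombin and factor Xa, ranged from 1722 to 2537 CPM in controls, from 1753 to 1925 CPM in depleted livers and from 1855 to 2607 CPM after hepatectomy. Serpind1, heparin cofactor II, gave log2 fold changes of -0.20 ± 0.14 (SE) in depleted livers and 0.00 ± 0.15 after hepatectomy. Proc, protein C, which inactivates factors V and VIII, stood at 359, 391, 415 and 423 CPM in depleted livers against 361 to 756 CPM in controls (median 535 CPM) and 435, 484 and 628 CPM after hepatectomy. Proz, protein Z, the partner of Serpina10, had log2 fold changes of -0.42 ± 0.16 in depleted livers and -0.03 ± 0.18 after hepatectomy. In depleted livers the edgeR adjusted p was 0.17 for Serpinc1, 0.111 for Proc and 0.0687 for Proz. Serpinc1 (0.046) and Proc (0.0315) passed without control replicate 4, and Proz without depleted replicate 2 (0.0477) and with limma-voom (0.0491). Serpinc1, Serpind1 and Plg each overlap a gene on the other strand that is also in the table (Zbtb37, Pi4ka and Slc22a3), and whether the counting used strand is not given in the sources used here.

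**Figure D3:**
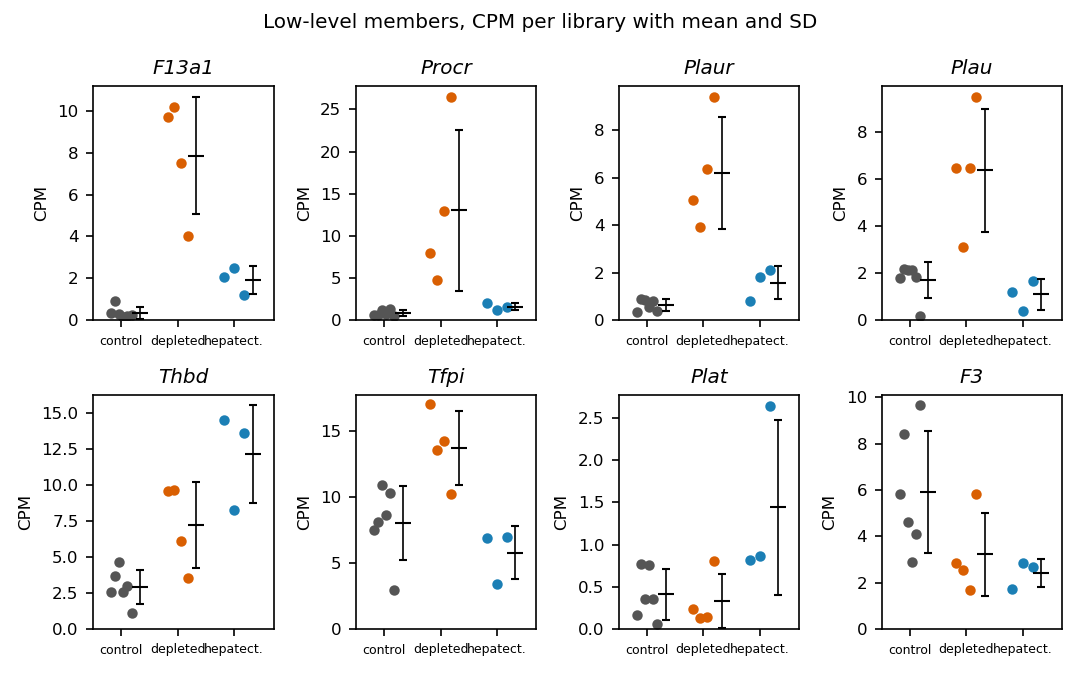
CPM of 8 low-level members in each library of the control (grey), stellate cell-depleted (orange) and 72 h hepatectomised (blue) groups, with the mean and SD beside the points and axes that start at 0. F13a1, Procr, Plaur and Plau are higher in all 4 depleted libraries than in every other library.

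Of the 6 fibrinolysis members, edgeR called 3 higher in depleted livers (Plaur, Plau and Cpb2) and 0 lower, beside 18.9% and 15% of all genes. Plg, Plat and Serpinf2 were not called there. Plaur, the urokinase receptor, ranged from 0.348 to 0.890 CPM in controls with a median of 0.679 CPM. It was at 5.08, 3.92, 6.38 and 9.42 CPM in depleted livers and at 0.794, 1.80 and 2.12 CPM after hepatectomy. Every depleted library was above every other one. On the log2 scale the change was 3.20 ± 0.37 (SE) in depleted livers (edgeR adjusted p = 4.3e-05), 1.33 ± 0.39 after hepatectomy (0.0538) and 1.87 ± 0.45 between them (0.0101, and 0.0685 without depleted replicate 3). After hepatectomy Plaur was called by DESeq2 (0.0165) and without control replicate 2 (0.0439), depleted replicate 4 (0.0493) or hepatectomised replicate 1 (0.0348). Plau, urokinase itself, ranged from 0.180 to 2.17 CPM in controls with a median of 1.97 CPM, the lowest being control replicate 6. It was at 6.47, 3.09, 6.50 and 9.51 CPM in depleted livers and at 1.21, 0.393 and 1.67 CPM after hepatectomy. Fitted as a log2 fold change, the difference was 1.82 ± 0.52 in depleted livers (0.0159) and 2.42 ± 0.68 against hepatectomised livers (0.0221). Without depleted replicate 3 these adjusted p were 0.112 and 0.103, and the second was also lost without hepatectomised replicate 2 (0.0705) or 3 (0.0547) and with limma-voom (0.0527).

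Plat, the tissue-type activator, was at low counts in most libraries. It was at 0.161, 0.766, 0.354, 0.764, 0.351 and 0.0600 CPM in control replicates 1 to 6, at 0.236, 0.134, 0.140 and 0.802 CPM in depleted livers and at 0.823, 0.870 and 2.64 CPM after hepatectomy. Hepatectomised livers were above all others, and replicate 3 was the highest. The log2 difference of depleted from hepatectomised livers was -2.48 ± 0.76 (SE; edgeR adjusted p = 0.0333), and -3.19 without depleted replicate 4. Leaving out depleted replicate 1 (0.0811), 2 (0.0711) or 3 (0.115) or hepatectomised replicate 2 (0.0546) or 3 (0.187) ended the call, as did omitting sex (0.0622) and library size alone (0.0654). Against control Plat after hepatectomy had an adjusted p of 0.11, which was 0.0272 without control replicate 2 and 0.0267 with limma-voom. Beside it, the 4 mesothelial markers summed to 0.420 to 2.99 CPM in controls, 1.08 to 2.60 CPM in depleted livers and 6.34 to 38.1 CPM after hepatectomy, highest in hepatectomised replicate 3. Of these, 3 rose after hepatectomy. The 5 cholangiocyte markers summed to 4.68 to 6.41 CPM in controls, 4.86 to 15.8 CPM in depleted livers and 12.3 to 18.2 CPM after hepatectomy. They too were highest in hepatectomised replicate 3, and 2 of the 4 tested rose after hepatectomy. The part of either cell type in the result was not tested.

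Of the liver-made fibrinolysis genes, Cpb2 rose in both treated groups. Cpb2, the carboxypeptidase that protects fibrin from plasmin, ranged from 256 to 404 CPM in controls with a median of 346 CPM. It was at 482, 515, 634 and 522 CPM in depleted livers and at 1069, 687 and 543 CPM after hepatectomy. All 7 treated libraries were above all controls. The fitted log2 fold change was 0.77 ± 0.14 (SE) in depleted livers (edgeR adjusted p = 0.0013) and 1.07 ± 0.15 after hepatectomy (0.00226), and both calls were kept under every alternative. Serpinf2, the plasmin inhibitor alpha-2-antiplasmin, ranged from 774 to 1141 CPM in controls with a median of 931 CPM. It was at 1043, 1001, 1035 and 1121 CPM in depleted livers and at 1305, 1426 and 1491 CPM after hepatectomy. The hepatectomised libraries were above all others. Its log2 fold change was 0.58 ± 0.14 after hepatectomy (0.0229) and 0.14 ± 0.13 in depleted livers (0.43). The call after hepatectomy was lost with the replicate number as a block (0.118), with library size alone (0.0862), without control replicate 1 (0.0597) or hepatectomised replicate 2 (0.0871) or 3 (0.0882), and without control replicate 6 and hepatectomised replicate 2 together (0.111). Against hepatectomised livers the depleted value had an adjusted p of 0.0646, and passed without control replicate 4 (0.0353), with DESeq2 (0.0296) and without sex (0.0479). Plg, plasminogen, gave log2 fold changes of 0.01 ± 0.16 and 0.36 ± 0.16 and was not called.

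**Figure D4:**
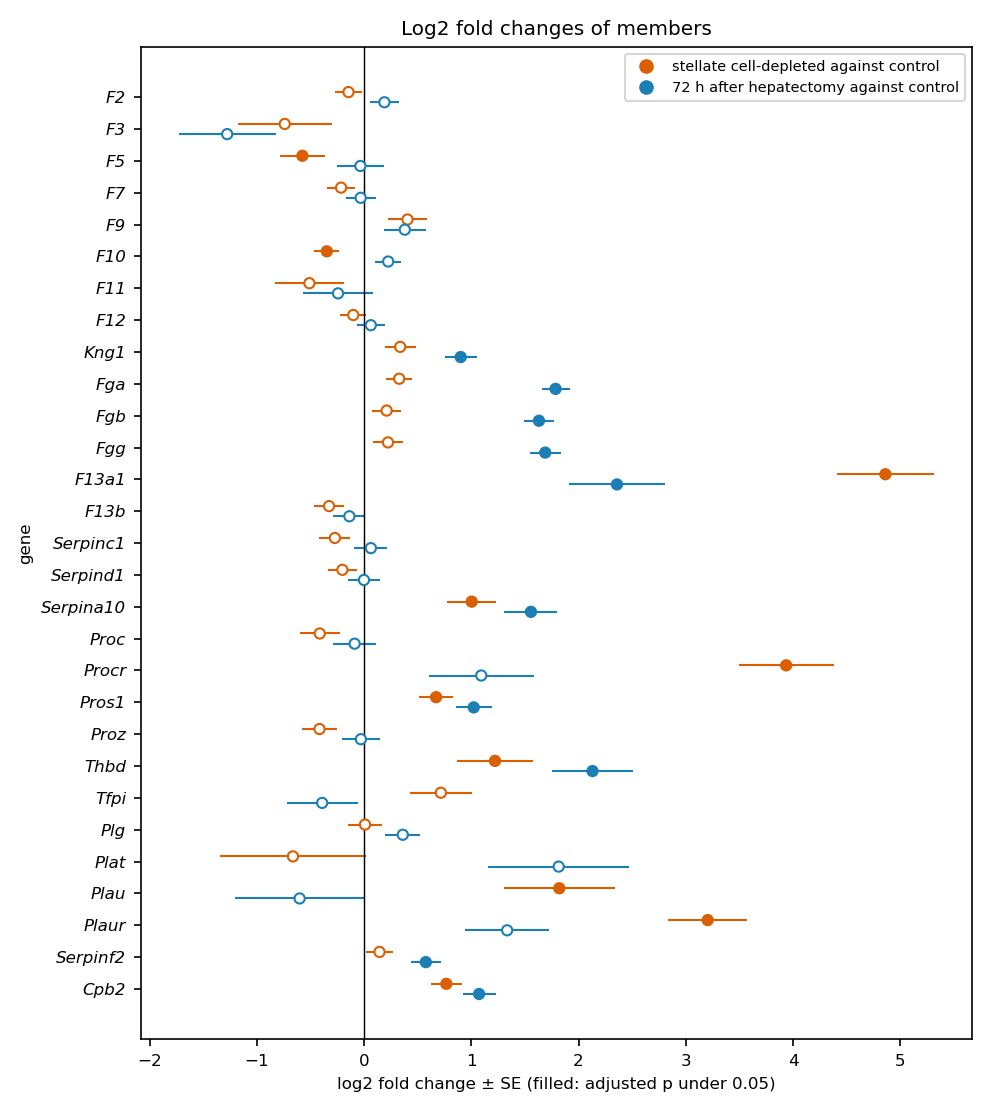
Log2 fold change with its SE for each of the 29 members in stellate cell-depleted (orange) and 72 h hepatectomised (blue) livers against the same 6 controls, with filled points for an edgeR adjusted p under 0.05. F13a1 has the largest value in either comparison, and most cascade factors lie within 0.6 of 0.

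Between male and female controls edgeR called 0 members, against 0.738% of 13005 genes, and limma-voom called 0. At an unadjusted p under 0.05 there were 4 members, F3, F11, Cpb2 and Proc, each higher in males, and DESeq2 called 2, F3 and F11. F11, a protease of the contact phase, was at 127, 115 and 181 CPM in the male controls (replicates 1, 2 and 6) and at 65.3, 52.2 and 79.5 CPM in the females (replicates 3, 4 and 5). The sexes did not overlap, the log2 difference was 1.10 ± 0.22 (SE), and the edgeR adjusted p was 0.0745. F3 differed by 1.04 ± 0.28 with an adjusted p of 0.192. Sex was a term in the comparisons above.

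Other genes of the pathway, 32 cofactors, receptors, inhibitors and regulators of the same system, were read from a second list, of which 30 were tested. In depleted livers 10 were higher and 3 lower, after hepatectomy 8 were higher and 0 lower, and in the direct comparison 7 were higher and 9 lower in depleted livers. These were 43.3%, 26.7% and 53.3% of the genes tested, beside 18.9% higher and 15% lower, 6.06% and 2.36%, and 13.3% and 10.1% of all genes. The list's median log2 fold change was 0.48, 0.41 and -0.40. F2rl2 and F2rl3 passed the filter on low counts through the depleted libraries and A2m through the hepatectomised ones, so they had to differ and the counts and medians are descriptions only. For the 0 lower after hepatectomy, 3 had an unadjusted p under 0.05 (Vwf, F2r and Plgrkt), and DESeq2 and limma-voom called 0. Adamts13, the protease that trims von Willebrand factor and is known as a product of hepatic stellate cells, ranged from 5.61 to 11.3 CPM in controls with a median of 7.85 CPM. It was at 0, 0.0896, 0.0175 and 0.356 CPM in depleted livers and at 2.94, 3.62 and 6.51 CPM after hepatectomy. Depleted replicate 4 had the highest depleted value, and the stellate cell marker sums of depleted replicates 1 to 4 were 10.39, 10.55, 14.83 and 71.46 CPM. The part of stellate cells in the values of Adamts13 was not tested. The depleted libraries held 0 to 16 counts of Adamts13 and the controls 187 to 483, and no fold is given. By edgeR Adamts13 was lower in depleted livers than in controls (adjusted p = 4e-05). Vwf, its substrate, was at 16.4, 19.9, 12.1 and 7.86 CPM in depleted livers against 1.89 to 9.30 CPM in controls and 3.35, 2.86 and 3.49 CPM after hepatectomy. Its log2 fold change was 0.98 ± 0.34 (SE) in depleted livers (0.0404) and 1.94 ± 0.45 against hepatectomised livers (0.00789). The first call of Vwf was lost without control replicate 3, 4 or 5, depleted replicate 1, 2 or 3 or hepatectomised replicate 1 or 3 (adjusted p from 0.0508 to 0.147), in a fit of those groups alone (0.0639) and in females only (0.121), and the second without hepatectomised replicate 3 (0.0509).

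Inhibitors of proteolysis on the list moved in both directions. Serping1, the C1 inhibitor that also restrains the contact system, rose by 1.25 ± 0.15 (SE) in depleted livers and by 0.83 ± 0.16 after hepatectomy on the log2 scale. By edgeR the rise after hepatectomy had an adjusted p of 0.00832, of 0.0568 without hepatectomised replicate 3 and of 0.0583 with the replicate number as a block. A2m, alpha-2-macroglobulin, was at 0.0600 to 0.268 CPM in controls and 0.0349 to 0.490 CPM in depleted livers, and reached 81.0, 62.5 and 2.29 CPM after hepatectomy. Hepatectomised replicate 3, the only female of its group, was far under the other two. The control and depleted libraries held 2 to 10 and 2 to 22 counts of A2m, and no fold is given. Tfpi2, a Kunitz-type inhibitor of plasmin and other proteases, ranged from 32.2 to 66.6 CPM in controls, and was at 34.98, 30.4, 33.2 and 28.3 CPM in depleted livers and at 80.5, 66.9 and 48.0 CPM after hepatectomy. Depleted and hepatectomised livers did not overlap, with a log2 difference of -0.87 ± 0.21 (0.00915, and 0.0619 without depleted replicate 3). Against control Tfpi2 changed by -0.51 ± 0.17 in depleted livers (0.0366). That call was lost without control replicate 3, 5 or 6 or depleted replicate 2, 3 or 4 (0.053 to 0.181), with library size alone (0.0689), with the block (0.11), in females only (0.178) and without the 2 libraries low in markers (0.0603). Serpine2, protease nexin-1, an inhibitor of thrombin and plasminogen activators, ranged from 2.15 to 25.6 CPM in controls, and was at 0.450, 0.806, 11.9 and 2.27 CPM in depleted livers and at 18.3, 36.9 and 6.14 CPM after hepatectomy. The groups overlapped. Depleted livers differed from control by -1.31 ± 0.52 (0.0721) and from hepatectomised livers by -1.88 ± 0.59 (0.039). The second call was lost without control replicate 1 or 3, depleted replicate 1, 2 or 3 or hepatectomised replicate 2 or 3 (0.0516 to 0.135), and in 5 other alternatives (0.0682 to 0.13). Fgl1, a hepatocyte secreted protein, rose by 2.43 ± 0.24 in depleted livers and by 3.33 ± 0.26 after hepatectomy. Fgl2, a membrane prothrombinase, was at 66.5, 56.4, 140 and 76.4 CPM in depleted livers, against 1.11 to 8.63 CPM in controls and 4.26, 1.40 and 5.94 CPM after hepatectomy.

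Among receptors, the protease receptor F2rl1 rose in depleted livers by 1.58 ± 0.38 (SE) on the log2 scale, from control levels of at most 0.427 CPM (edgeR adjusted p = 0.00659, and 0.0676 in females only). F2rl2, a thrombin receptor, was at 0.557, 0.314, 0.576 and 0.913 CPM in depleted livers, at most 0.0988 CPM in controls and at 0.0588, 0.112 and 0.0998 CPM after hepatectomy. With at most 4 counts in any control or hepatectomised library, no fold is given. F2rl3, a signalling thrombin receptor of mouse platelets, was at 0.493, 0.381, 0.611 and 0.512 CPM in depleted livers, at most 0.0300 CPM in controls and at 0 after hepatectomy. The sums of the platelet markers are given above, and their part in this was not tested. Plgrkt, a plasminogen receptor, was at 15.0, 10.6, 15.5 and 24.1 CPM in depleted livers, against 5.22 to 7.95 CPM in controls and 4.20, 3.37 and 4.79 CPM after hepatectomy. Its log2 fold change in depleted livers was 1.39 ± 0.22, with an edgeR adjusted p of 0.000426. Ggcx, Vkorc1 and Vkorc1l1, which serve the vitamin K-dependent carboxylation of factors II, VII, IX and X, were not called against control in either group. Ggcx, the carboxylase, had a log2 difference of -0.50 ± 0.16 between depleted and hepatectomised livers (0.041). That call was lost without control replicate 1, 3 or 5, depleted replicate 2, 3 or 4 or hepatectomised replicate 2 (0.0568 to 0.227), with library size alone (0.401), in a fit of those groups alone (0.133), with the block (0.0553) and without the 2 libraries low in markers (0.0887).

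**Figure D5:**
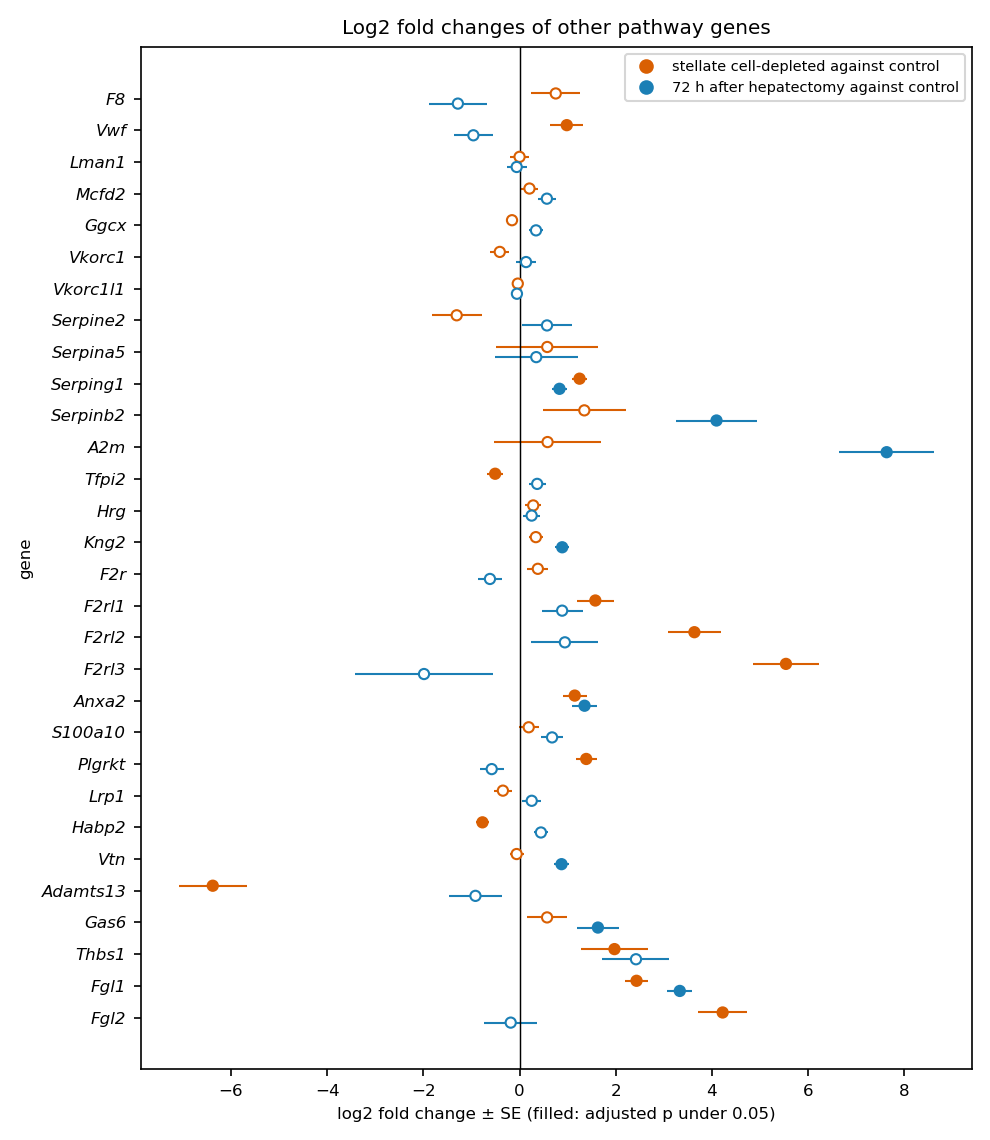
Log2 fold change with its SE for the 30 tested genes of the second pathway list in stellate cell-depleted (orange) and 72 h hepatectomised (blue) livers against control, with filled points for an edgeR adjusted p under 0.05. The values of A2m, F2rl2, F2rl3 and Adamts13 rest on counts near 0 in at least 1 group, and Fgl1 is higher in both comparisons.

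Fibrinogen was set beside other acute phase genes, a class known to be induced in hepatocytes during inflammation, read here in whole-liver RNA. All 11 listed acute phase genes rose in depleted livers and all 11 rose after hepatectomy, with median log2 fold changes of 2.33 and 3.47. Hp, haptoglobin, ranged from 1472 to 3039 CPM in controls, and was at 9084, 8080, 12239 and 8667 CPM in depleted livers and at 21116, 16581 and 9061 CPM after hepatectomy. Its log2 fold change was 2.33 ± 0.14 (SE) and 2.64 ± 0.14, and the direct difference of -0.31 ± 0.17 was not called (edgeR adjusted p = 0.212). In the direct comparison 2 of the 11 were called, Cp higher and Itih4 lower in depleted livers, and the median of the 11 was -0.47. Saa2, a serum amyloid A gene, differed there by -1.46 ± 1.02 (0.333) and Apcs, serum amyloid P, by -1.14 ± 0.53 (0.146), neither called. Whether the fibrinogen chains differed from these genes was not tested. The call of Cp was lost without depleted replicate 3 (0.0552) or hepatectomised replicate 2 (0.0521) or 3 (0.0517), without the 2 libraries low in markers (0.0543) and in a fit of those groups alone (0.116), where Itih4 gave 0.0675. Hepatectomised replicate 3, the only female of its group, had the lowest hepatectomised value of Hp, and also of the 3 fibrinogen chains. Among controls Hp was higher in males by 0.87 ± 0.15 (SE) on the log2 scale (edgeR adjusted p = 0.0477). The chains differed there by 0.09 to 0.18 (adjusted p from 0.628 to 0.789). The part of sex in the values of replicate 3 was not tested.

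Genes known as regulators of these genes in hepatocytes were measured on the same scale in whole-liver RNA. The part of other cell types in their values was not tested. Socs3, an inhibitor that interleukin-6 signalling induces, ranged from 3.14 to 9.64 CPM in controls, and was at 26.0, 12.7, 36.0 and 31.6 CPM in depleted livers and at 36.4, 199 and 121 CPM after hepatectomy. The log2 fold change was 2.35 ± 0.43 (SE) and 4.29 ± 0.45, and the direct difference was -1.94 ± 0.49 with an edgeR adjusted p of 0.0143. The difference of Socs3 lost its call without depleted replicate 3 (0.0599) or hepatectomised replicate 2 (0.0518) or 3 (0.134), with the replicate block (0.0939), with limma-voom (0.065), in a fit of those groups alone (0.0539) and without the 2 libraries low in markers (0.0636). Cebpb, a factor of acute phase promoters, rose by 1.31 ± 0.24 and 2.18 ± 0.24. Its direct difference was -0.86 ± 0.28 (0.0409), and -0.42 with an adjusted p of 0.381 without hepatectomised replicate 3. Leaving out control replicate 1, 3 or 4, depleted replicate 1, 2 or 3 or hepatectomised replicate 2 also ended the call of Cebpb, with adjusted p from 0.0532 to 0.116, and the block gave 0.0689, library size alone 0.2, limma-voom 0.0814, a fit of those groups alone 0.0726 and omission of the 2 libraries low in markers 0.105. Stat3, the transcription factor of interleukin-6 signalling, rose by 0.82 ± 0.16 and 1.17 ± 0.18, and its direct difference was not called (0.227). Cebpa fell by 1.00 ± 0.21 and 1.50 ± 0.23, the first with an adjusted p of 0.0671 in females only. Hnf4a and Nr1i3 were not called in any of the 3 comparisons. Transcript levels say nothing of the activity of these factors.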

How the data were processed

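The authors deposited 1 table of raw read counts per gene for 13 libraries, with a gene length. Per the labels' protocols, RNA was taken up in TRIzol and TruSeq stranded mRNA libraries were made from it. The submitters' processing notes name STAR 2.7.1a, SAMtools 1.15.1, featureCounts 1.6.4 and the build mm10, with no role or order. Strand setting and multi-mapped reads are not given there. Symbols came from Ensembl IDs and coordinates from GENCODE M21. The length, listed in bases beside the deposited counts, was used only to order levels between genes.

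The members and the lists were chosen with earlier results of these data known. All 29 members are named. From the other lists, genes called in a comparison could be named, and those named as not called were chosen after their values were seen. A few items of these lists are not reported here.

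Counts were tested with edgeR 4.0.16 in R 4.3.3 (TMM, filterByExpr, glmQLFit with robust estimation, two-sided) on group and sex over all 13 libraries, and SE is the log2 fold change divided by the root of F. Male and female controls were compared on the 6 controls. Alternatives were no sex term, 2 groups alone, RLE scaling, library size alone, no low-count filter, DESeq2 1.42.0, limma-voom (limma 3.58.1), a replicate block, females only, and each library left out. Leaving out control replicate 6 and hepatectomised replicate 2 was added after seeing the data. On counts simulated for depleted against control, with 190 of 13282 genes changed, the test recovered 98.8% of 4-fold and 31.4% of 2-fold changes with 7 false calls. The simulation gave all genes the same dispersion and no sex effect. It also changed far fewer genes than were called in the data, so these rates need not hold for the members. Replicates varied by 31.4% (edgeR's common biological coefficient of variation). The closest pair of replicates had a median chi-square per gene of 4.60, against 0.455 for a library read again, so none was merged. Reads carry no molecular identifiers, so the 3-count floor covers counting error only.

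Replicate numbers 1 to 3 occur in all groups. Deviations from the group means of same-numbered control and hepatectomised libraries, which are of the same sex, correlated at 0.11 to 0.52 across genes. After sex was fitted too, the range was -0.19 to 0.08. For control and depleted livers it was -0.34 to 0.07, and -0.10 to 0.42 with sex. Blocked values are printed beside the calls they change.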

Additional observations from a re-analysis of the deposited data

Results flagged for a closer look

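In 58 groups of 4 or 6 libraries (29 members in control and depleted livers), the highest or lowest value was set against Dixon's critical value. Chance flags about 1 in 20 groups, or 2.9 of 58, and 3 were found. F13a1 was at 0.890 CPM in control replicate 2, with a gap to the next control of 0.717 of the range, and the other controls were at 0.135 to 0.348 CPM. Plat was at 0.802 CPM in depleted replicate 4, with a gap of 0.848 of the range, against 0.134 to 0.236 CPM in the other depleted livers. Plau was at 0.180 CPM in control replicate 6, with a gap of 0.810 of the range. That library also had the lowest monocyte, Kupffer and endothelial marker sums of the controls.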

How the results depend on the processing

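Of 31 member changes called, 17 kept their call under every alternative, and 72 of 692 alternative fits lost one. The 2 members lower in depleted livers (F5, F10) became 1 without sex, with the 2 groups alone, RLE scaling, no low-count filter, the replicate block or the 2 marker-low libraries left out (control replicate 6 and hepatectomised replicate 2), 3 with limma-voom and 0 with library size alone or females only. Leaving out single libraries gave 0 to 4. Over all genes, the 2078 lower in depleted livers became 861 with females only and 1174 to 2288 without single libraries. In that comparison library size alone called 12 members higher. The 0 members lower after hepatectomy became 1 (F3) with library size alone and DESeq2. Members lower in depleted than in hepatectomised livers, 6 in all, became 3 with library size alone, 4 with the 2 groups alone and 3 to 7 without single libraries, and the 5 higher became 2 to 5. Over all genes, the 1399 lower there became 707 with the 2 groups alone and 658 to 1876 without single libraries. The 1837 higher became 1051 to 2035 without single libraries. The 0 members differing by sex became 1 without the filter and 2 with DESeq2. Females only could be run for depleted against control alone.

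With the replicate block, F10 in depleted livers (log2 fold change -0.38, adjusted p 0.0955), Kng1 after hepatectomy (0.86, 0.0563), Kng1 in the direct comparison (-0.54, 0.106) and Serpinf2 after hepatectomy (0.54, 0.118) were no longer called. The block moved the members higher after hepatectomy from 10 to 8 and changed no other called member. Over all genes, it moved those higher after hepatectomy from 838 to 460. Depth limits Plat, at 0.0600 CPM in control replicate 6, under the 3-count floor of 0.0900 CPM there. The causes of changed calls were not tested.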
